A study of Homo sapiens with 4 samples.

Results

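The genes described here are the 31 members of a list of the unfolded protein response and the integrated stress response, read in T24 cells that overexpressed miR-146a-5p. They were taken by gene symbol from 60623 genes in the deposited table, each symbol matched 1 row, and all 31 were among the 14810 genes with enough reads to test. T24 is a human cell line established from bladder cancer. It was transfected, per the study's design text, with a mimic of the microRNA (2 libraries, miR-146a-5p replicates 1 and 2) or with a scramble control (2 libraries, scramble replicates 1 and 2), and bulk RNA was sequenced. The sample labels call the first group overexpression, and name no dose, time after transfection, clone or culture, so p-values measure the spread between libraries, which may be technical. All 4 libraries come from this 1 line. In bulk RNA, fewer cells that use a gene cannot be told apart from less of its RNA per cell.

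Secretory and membrane proteins fold in the endoplasmic reticulum. When unfolded proteins build up there, the membrane sensors IRE1 (ERN1), PERK (EIF2AK3) and ATF6 signal to the nucleus, where spliced XBP1, cleaved ATF6 and ATF4 raise chaperones, folding enzymes and the degradation machinery called ERAD. PERK shares its substrate, the initiation factor eIF2-alpha, with kinases that sense amino acid shortage, haem shortage and double-stranded RNA, and this common branch is the integrated stress response (ISR), in which ATF4 raises genes of amino acid supply and the factors DDIT3 (CHOP), ATF3, TRIB3 and CHAC1. Much of this signalling runs through splicing, cleavage, phosphorylation and translation, none of which a gene-level RNA count reads.

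The microRNA and sites that could pair with its seed are shown first, because most known direct targets of a microRNA carry such a match. In the mature sequence the capitals mark the seed, bases 2 to 8.
hsa-miR-146a-5p: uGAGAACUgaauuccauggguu
In the sites, taken from the 3' UTR of each gene's longest coding transcript in GENCODE 29 (GRCh38), the capitals mark the match, that is, the letters that pair with the seed and, where present, the A opposite base 1. HYOU1 had a match to the whole seed (7 letters), while CALR, EDEM1 and ERN1 had only a match to bases 2 to 7 followed by A.
HYOU1, chr11:119044989-119044995, minus strand: gcaaattgggcAGTTCTCtgccccttgcc
CALR, chr19:12944152-12944158, plus strand: cctcacccctgGTTCTCAtctttcttgat
EDEM1, chr3:5217398-5217404, plus strand: cacatagcacgGTTCTCAcctgtcactgt
ERN1, chr17:64042013-64042019, minus strand: cagcccagctcGTTCTCAgcacaggtttt
ERN1, chr17:64040727-64040733, minus strand: ggtgcgcaggtGTTCTCActcccgccgtg
ERN1, chr17:64040710-64040716, minus strand: actcccgccgtGTTCTCAgtgcagtggtg
IRAK1, a textbook target of the microRNA that is no member, is the check of the transfection, and its first 8-letter match is shown for comparison.
IRAK1, chrX:154011812-154011819, minus strand: ccggaagtcaaAGTTCTCAtggtcagaagt
In all, 5 members had a match, 16.1% of the 31, against 21.0% of the 12345 tested genes with a 3' UTR, so matches were not more frequent among them than in the background. None of the 31 had an 8-letter match, which 4.79% of those genes had, and 2 had the whole-seed match of 7 letters, against 8.9%. IRAK1 had 108 and 109 CPM (counts per gene scaled to the same total in every library) in the miR-146a-5p libraries, against 498 and 716 CPM in the scramble libraries, a 5.59-fold lower mean (edgeR adjusted p = 0.728, DESeq2 adjusted p = 5.03e-09).

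The promoters of several members carry the elements through which ATF6, XBP1 and ATF4 act. The endoplasmic reticulum stress element ERSE (CCAAT and CCACG separated by any 9 bases, on either strand) was present between 250 bases before and 50 after the start of 7 of the 31 members, CALR, CANX, CRELD2, HSP90B1, HSPA5, PDIA6 and XBP1. That is 22.6% of them, against 0.0916% of 27305 genes with promoters of the same length (0.0769% of 35116 promoters), a gene being counted when any of its promoters held the element. The shorter ERSE-II (ATTGG, any 1 base, then CCACG, on either strand, the CCACG being shared with ERSE) was present in HERPUD1, HYOU1 and SDF2L1, 9.68% of the members and 0.0696% of all genes (0.0541% of promoters). The ATF4 core TGATGNAA, on either strand, was present in ASNS, ATF3, CHAC1 and HERPUD1, 12.9% of the members against 4.46% of all genes (3.62% of promoters). All of these elements were defined in part on such genes, so the counts describe the list and are not independent evidence. A match is only a match of letters. The promoters of 4 members on which the results below turn are printed from RefSeq (GRCh38.p14), with the ERSE or ERSE-II letters in capitals. HSPA5 and HSP90B1 share the element but not their levels across libraries, and XBP1 and HYOU1 are the members furthest from both scramble libraries in each direction among those with an ERSE or ERSE-II.
HSPA5 promoter, chr9:125241294-125241593, minus strand: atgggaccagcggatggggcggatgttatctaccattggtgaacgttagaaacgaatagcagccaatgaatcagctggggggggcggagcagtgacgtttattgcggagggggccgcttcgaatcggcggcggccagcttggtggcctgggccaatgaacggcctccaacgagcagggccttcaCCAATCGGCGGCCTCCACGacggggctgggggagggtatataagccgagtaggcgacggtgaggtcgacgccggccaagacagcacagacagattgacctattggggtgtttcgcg
HSP90B1 promoter, chr12:103930160-103930459, plus strand: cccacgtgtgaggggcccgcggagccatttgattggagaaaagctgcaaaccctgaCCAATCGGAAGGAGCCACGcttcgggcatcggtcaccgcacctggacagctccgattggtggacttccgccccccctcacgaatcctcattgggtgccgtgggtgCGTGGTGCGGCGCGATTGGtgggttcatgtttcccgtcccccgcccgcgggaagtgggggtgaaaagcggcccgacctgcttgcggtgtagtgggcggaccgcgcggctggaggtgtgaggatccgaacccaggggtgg
XBP1 promoter, chr22:28800520-28800819, minus strand: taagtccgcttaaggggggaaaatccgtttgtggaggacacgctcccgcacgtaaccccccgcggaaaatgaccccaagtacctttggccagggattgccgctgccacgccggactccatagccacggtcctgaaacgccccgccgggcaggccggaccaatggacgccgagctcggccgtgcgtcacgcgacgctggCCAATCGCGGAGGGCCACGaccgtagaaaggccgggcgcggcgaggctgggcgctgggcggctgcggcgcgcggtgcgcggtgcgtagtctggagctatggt
HYOU1 promoter, chr11:119057156-119057455, minus strand: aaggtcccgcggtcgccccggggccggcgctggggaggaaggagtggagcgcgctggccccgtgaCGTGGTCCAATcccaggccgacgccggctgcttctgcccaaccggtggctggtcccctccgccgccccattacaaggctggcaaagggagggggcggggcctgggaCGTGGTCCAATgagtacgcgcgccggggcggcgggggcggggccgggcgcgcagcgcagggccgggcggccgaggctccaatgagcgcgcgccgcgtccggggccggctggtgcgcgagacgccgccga

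The libraries held 21544243 and 20290055 estimated counts in miR-146a-5p cells, against 22388468 and 22774090 in scramble cells. The keratins KRT7, KRT8 and KRT18 and the mesenchymal filament VIM were high in every library. The uroplakin UPK3A and the basal keratin KRT5 were at 0, UPK1B, UPK2, KRT20 and CDH1 were at or near 0, and 6 leukocyte, 5 fibroblast and 4 endothelial markers summed to at most 1.80, 6.11 and 0.542 CPM in any library. Of the markers of plasma cells, which run a constant unfolded protein response, JCHAIN and IGHG1 were at 0 in all libraries and MZB1 was at most 0.0878 CPM, while SDC1, which epithelial cells also express, had 221 and 214 CPM in miR-146a-5p libraries, against 145 and 209 CPM in scramble libraries. Counts from mitochondrially encoded genes made up 3.37% and 3.33% of miR-146a-5p libraries and 4.01% and 4.33% of scramble libraries. The miR-146a-5p libraries were alike and the scramble libraries were not. The Pearson correlation of log2 CPM across tested genes was 0.989 for the miR-146a-5p pair and 0.925 for the scramble pair. Of the 31 members, 0 differed over 2-fold between the miR-146a-5p libraries (2.67% of tested genes did) and 5 between the scramble libraries (23.4%), so each result is given against each scramble library.

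Per unit of length, the members spanned a wide range. In the authors' TPM, which corrects for transcript length, the mean over the 4 libraries ran from 2.86 for ERN1 to 620 for CALR, the calcium-binding lectin chaperone. HSP90B1 (GRP94, the endoplasmic reticulum HSP90) followed at 579.5 TPM, ATF4 at 452, HSPA5 (BiP, the HSP70 chaperone that also holds the sensors inactive) at 289 and CANX (the membrane lectin calnexin) at 286. ATF4 thus had more TPM than the other transcription factors of the list, of which XBP1 was next at 61.9. The lowest 5 after ERN1 were SESN2 (2.98), CHAC1 (3.26), DNAJB9 (3.84), EIF2AK3 (5.53) and ATF3 (6.09). The place of SESN2 rests in part on a listed 0 in scramble replicate 1, described below. Its other values were 4.69 and 3.30 TPM in miR-146a-5p libraries and 3.91 TPM in scramble replicate 2. HSP90B1 changed place with the library. It had 691 and 745 TPM in miR-146a-5p libraries, against 688 and 194 TPM in scramble libraries, while CALR had 662 and 630 TPM against 569 and 621.

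**Figure D1:**
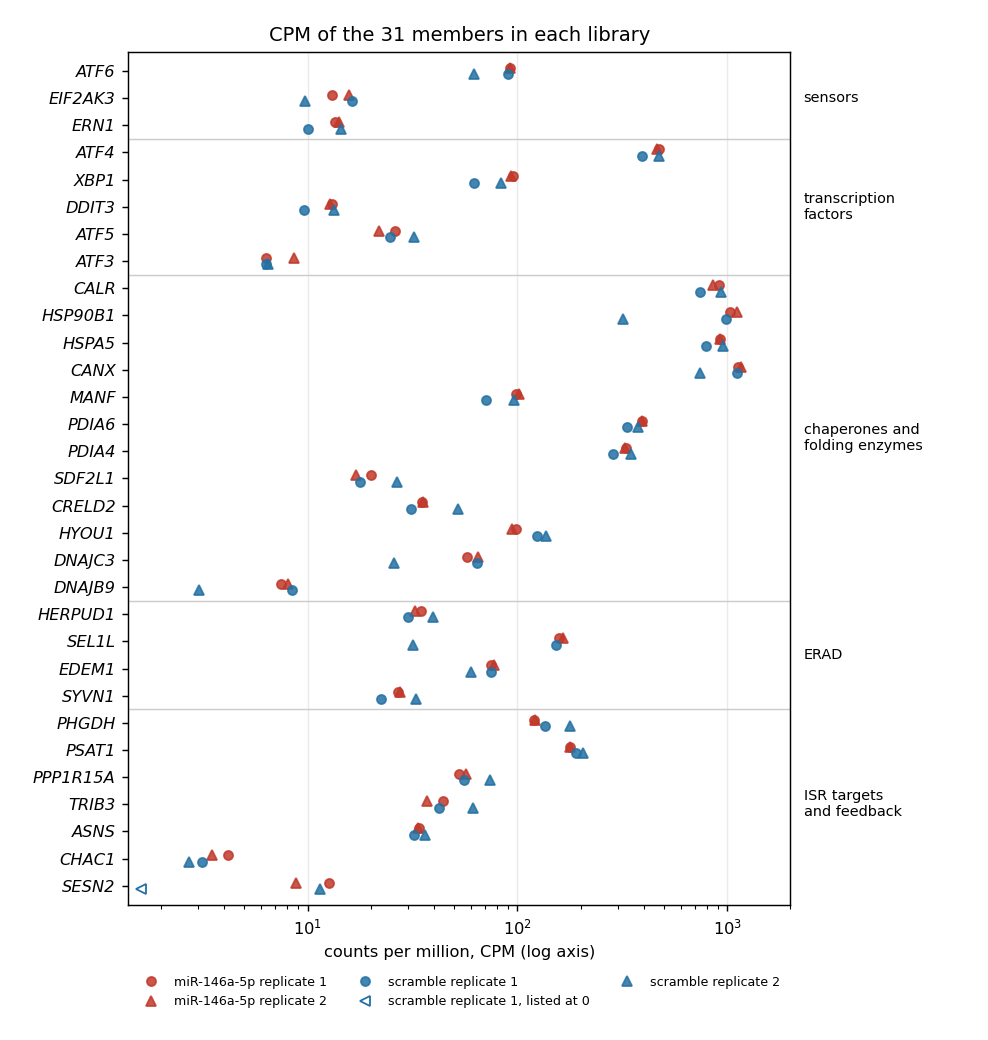
CPM (log axis) of each member in each library, grouped by role and ordered within a role by mean TPM; red, miR-146a-5p; blue, scramble; circles, replicate 1; triangles, replicate 2. The red points of a gene lie close together, while scramble replicate 2 stands far to the left for SEL1L, HSP90B1, DNAJC3 and DNAJB9, and SESN2 is listed at 0 in scramble replicate 1.

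Over all 4 libraries, no member was called. edgeR's quasi-likelihood test with Benjamini-Hochberg adjustment over all genes called 0 of 31 members, as it called 0.0% of all tested genes, and adjusted p ran from 0.970 to 0.995. At an unadjusted p under 0.05 there were 0 members, against 3.71% of tested genes. DESeq2 called 0 members (0.324% of genes it tested) and limma-voom 0 (0.0%). Without miR-146a-5p replicate 1 or replicate 2, edgeR called 0 members in each case (0.0776% and 0.0517% of genes). A fit with the replicate number as a block also called 0 members (0.0338%). With 2 libraries against 2, an exact permutation test cannot go below 0.333. The sign of the edgeR estimate was positive for 20 members (SESN2, which has a 0, among them) and negative for 11. Of all 14810 tested genes, 7385 were positive and 7425 negative. The members' median log2 fold change was 0.14, beside -0.00 for all tested genes. The 95% intervals lay within a 2-fold change either way for 21 members and reached past it for 10, so a 2-fold change was not excluded by the data for those 10, among them SEL1L, HSP90B1, DNAJC3 and DNAJB9. Both miR-146a-5p libraries lay above both scramble libraries for 9 members (18.0% of tested genes) and below both for 3 (18.0%), while 19 overlapped. The 12 members that did not overlap compare with 36.0% of tested genes.

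**Figure D2:**
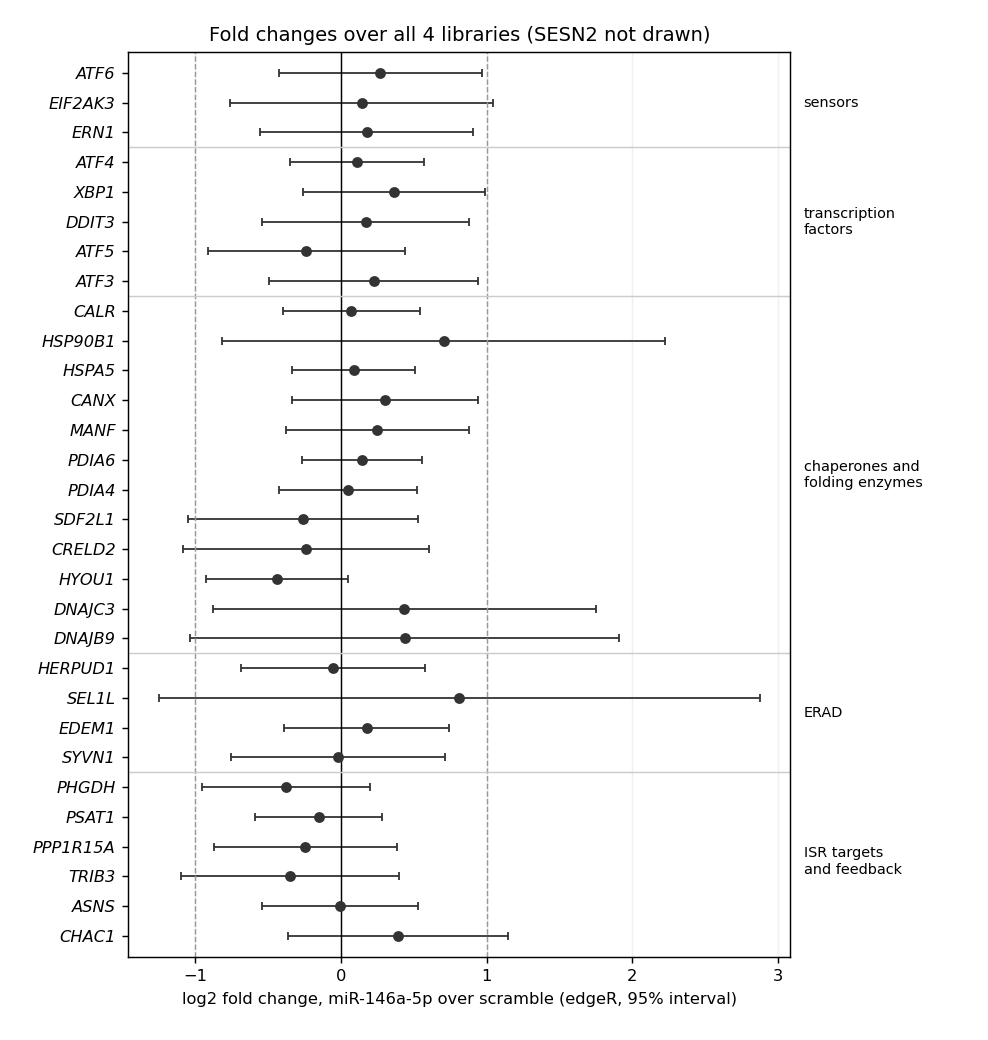
edgeR log2 fold change (miR-146a-5p over scramble, all 4 libraries) with its 95% interval for 30 members; dashed lines mark a 2-fold change. Every interval includes 0, from HYOU1 at -0.44 to SEL1L at 0.81, and those of SEL1L, HSP90B1, DNAJB9 and DNAJC3 are the widest drawn.

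The sensors differed between the groups by less than the scramble libraries differed from each other. ERN1, the kinase and endonuclease that splices XBP1 RNA, had 13.5 and 14.2 CPM in miR-146a-5p libraries, against 10.1 and 14.4 CPM in scramble libraries. EIF2AK3, the kinase PERK, had 13.1 and 15.7 CPM against 16.3 and 9.77 CPM in scramble. Its miR-146a-5p values lay between those of the scramble libraries. ATF6, the sensor that is cut to release a transcription factor, had 91.8 and 92.1 CPM against 90.3 and 62.0 CPM, above both scramble libraries but close to replicate 1. Their log2 fold changes were 0.18 ± 0.27, 0.14 ± 0.33 and 0.27 ± 0.26 (SE, edgeR adjusted p between 0.970 and 0.972). ERN1 was higher against scramble replicate 1 alone (log2 ratio of CPM 0.45) and not against replicate 2 (-0.06), whereas ATF6 was at 0.03 and 0.57 and EIF2AK3 at -0.18 and 0.55.

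Among the transcription factors, XBP1 (ENSG00000100219), the factor made active by IRE1 splicing, stood above both scramble libraries. It had 94.9 and 92.7 CPM in miR-146a-5p libraries, against 62.3 and 83.5 CPM in scramble libraries, a mean of 93.8 ± 1.499 against 72.9 ± 15.0 CPM (SD, n = 2 each). The log2 fold change was 0.36 ± 0.23 (SE, edgeR adjusted p = 0.970). The gap to scramble replicate 2 was smaller than the gap between the scramble libraries. ATF4, the central factor of the ISR, had 474 and 460 CPM, against 390 and 475 CPM, so that scramble replicate 2 was above both miR-146a-5p libraries and replicate 1 below both. DDIT3, the pro-apoptotic factor CHOP, followed the same order, with 13.1 and 12.8 CPM against 9.65 and 13.4 CPM. ATF5, an ATF4-related factor, had 26.1 and 21.9 CPM against 24.6 and 32.0 CPM. ATF3, an early stress factor, had 6.36 and 8.62 CPM against 6.34 and 6.46 CPM, and here the gap between the miR-146a-5p libraries was larger than that between the scramble libraries. In sum over the 5 factors, CPM was 614 and 596 in miR-146a-5p libraries, against 493 and 610 in scramble libraries. Most of each sum was ATF4, so it says little of the other factors.

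Of the 12 chaperones and folding enzymes, 4 lay above both scramble libraries (HSP90B1, CANX, MANF and PDIA6), 1 below both (HYOU1), and 7 overlapped, where 18.0% of tested genes lay on each side. HYOU1 (ENSG00000149428), the large HSP70-type chaperone GRP170 that exchanges nucleotide on BiP, had 98.9 and 93.9 CPM in miR-146a-5p libraries, against 124 and 137 CPM in scramble libraries. Its means were 96.4 ± 3.58 and 131 ± 9.41 CPM (SD, n = 2 each), its log2 fold change was -0.44 ± 0.18 (SE, 95% interval -0.93 to 0.05), and it had the smallest p of the list (unadjusted p = 0.0665, edgeR adjusted p = 0.970). The groups were apart by more than either pair. DNAJC3 (p58IPK, a co-chaperone and inhibitor of eIF2-alpha kinases), had 57.7 and 64.7 CPM against 64.5 and 25.9 CPM, with the miR-146a-5p values close to scramble replicate 1 and far above replicate 2.

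Among the most abundant chaperones, HSP90B1 and CANX stood apart in CPM from scramble replicate 2 and not from replicate 1. HSPA5 and CALR lay between the scramble libraries in CPM, but above both in TPM. HSPA5 had 300 and 303 TPM in miR-146a-5p libraries, against 268 and 284 TPM in scramble libraries. HSP90B1 (ENSG00000166598) had 1027 and 1107 CPM in miR-146a-5p libraries, against 986.5 and 320.3 CPM in scramble libraries. Scramble replicate 1 was 3.08-fold above replicate 2, and the mean of the miR-146a-5p libraries was 1.08-fold above replicate 1 and 3.33-fold above replicate 2. CANX had 1124 and 1166 CPM against 1114 and 741 CPM, with the same outlying library. HSPA5, which shares the ERSE printed above, had 926.0 and 926.1 CPM against 790.8 and 950.6 CPM, with the miR-146a-5p values between those of the scramble libraries. CALR had 911 and 851 CPM against 744 and 931 CPM, likewise between them. Log2 fold changes were 0.71 ± 0.56 for HSP90B1, 0.30 ± 0.24 for CANX, 0.09 ± 0.16 for HSPA5 and 0.07 ± 0.17 for CALR (SE, edgeR). The secreted factor MANF had 98.4 and 101 CPM against 71.2 and 96.7 CPM, above both scramble libraries but near replicate 2. The disulfide isomerases were close to scramble replicate 2 as well, PDIA6 with 392.1 and 392.7 CPM against 334 and 375.8 CPM, and PDIA4 with 328 and 326 CPM against 285 and 348 CPM. CRELD2, SDF2L1 and DNAJB9 (ERdj4, the co-chaperone that returns BiP to IRE1) all overlapped. CRELD2 had 35.1 and 35.4 CPM against 31.3 and 51.9 CPM.

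In ERAD, SEL1L (ENSG00000071537), the adaptor of the ubiquitin ligase complex, had 158 and 166 CPM in miR-146a-5p libraries, against 152 and 31.8 CPM in scramble libraries. Scramble replicate 1 was 4.78-fold above replicate 2, the largest gap among the members apart from SESN2, and the miR-146a-5p values lay just above replicate 1. Its log2 fold change was 0.81 ± 0.76 (SE, edgeR adjusted p = 0.970). The ligase itself, SYVN1 (HRD1), had 27.1 and 27.6 CPM against 22.4 and 33.0 CPM, between the scramble libraries. HERPUD1, a membrane component of the complex, had 34.8 and 32.4 CPM against 30.2 and 39.6 CPM, also between them. EDEM1, a lectin that hands glycoproteins to degradation, had 75.2 and 77.2 CPM against 74.5 and 60.2 CPM. For each of the 4 the difference between the group means was smaller than the gap between the scramble libraries. In the authors' TPM, SEL1L had 27.0 and 32.3 TPM against 27.4 and 4.56 TPM. SEL1L, EDEM1, CANX and ATF6 overlapped between the groups in TPM, though not in CPM. Other members overlapped in CPM and not in TPM. In TPM, HSPA5, CALR, PDIA4, ATF4, DDIT3 and ASNS lay above both scramble libraries, and TRIB3 and PPP1R15A below both. The share of all tested genes that did so was counted in CPM and not in TPM. These members therefore have no background beside them and are not read as changes.

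The ISR targets and feedback genes were the role with most estimates below 0, at 5 of 7, with a median of -0.15. Of all 14810 tested genes, 7425 had an estimate below 0. The median GC content of the role was 58.8%. Its part in these estimates was not tested beyond the offsets given below. PHGDH and PSAT1, the first steps of serine synthesis, lay below both scramble libraries. PHGDH had 120.0 and 121.5 CPM in miR-146a-5p libraries, against 135.1 and 178.1 CPM in scramble libraries (log2 fold change -0.38 ± 0.21, SE, edgeR adjusted p = 0.970). PSAT1 had 177 and 179 CPM against 190 and 206 CPM (-0.15 ± 0.16). TRIB3, a pseudokinase induced by ATF4 and CHOP, had 44.1 and 37.2 CPM against 42.3 and 61.2 CPM, and PPP1R15A (GADD34), which directs the phosphatase that resets eIF2-alpha, had 52.8 and 56.7 CPM against 55.7 and 73.9 CPM. Both overlapped. CHAC1, an enzyme that degrades glutathione, went the other way, with 4.18 and 3.50 CPM against 3.13 and 2.72 CPM, from 90 and 71 counts against 70 and 62. ASNS, asparagine synthetase, had 34.0 and 33.8 CPM against 32.0 and 36.1 CPM and overlapped.

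SESN2 (ENSG00000130766), sestrin 2, a stress-induced inhibitor of mTORC1, was listed at 0 in scramble replicate 1. Its estimated counts were 273 and 178 in miR-146a-5p libraries, against 0 and 261 in scramble libraries. It is the only gene of the table listed at 0 in 1 library and at 100 counts or more in each of the other 3. In estimated counts that 0 can be a failed estimate, so no fold against it is read as a change. Against scramble replicate 2 alone the log2 ratio was -0.11.

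Set against each scramble library alone, different members were apart. The log2 ratio was above 0 for 22 members against replicate 1 (49.8% of tested genes) and for 13 against replicate 2 (49.1%), and it had opposite signs against the scramble libraries for 15 members (52.1%), SESN2 being counted as above 0 against replicate 1 because of its 0. The comparisons share both miR-146a-5p libraries, and each fit assumes that the lone scramble library varies like the miR-146a-5p pair. Against scramble replicate 1 (replicate 2 left out), the median log2 ratio of the members was 0.11 (-0.00 for all tested genes), and edgeR called 9 members, where it called 21.7% of tested genes. Of these, 8 rose (10.1% of genes) and 1 fell (11.7%). The members that rose were CALR, PDIA6, MANF, ERN1, XBP1, ATF4 and DDIT3, besides SESN2, whose call rests on its 0. SESN2 was also among the members called against replicate 1 by DESeq2 and with the offsets given below, through the same 0. HYOU1 fell. Against scramble replicate 2 (replicate 1 left out), the median was -0.05 (-0.02 for all tested genes; in the authors' TPM the members' median was 0.08), and 17 members were called, near the 54.9% of all genes. There 8 rose (28.5%), namely HSP90B1, CANX, DNAJB9, DNAJC3, SEL1L, EDEM1, EIF2AK3 and ATF6. And 9 fell (26.4%), namely SDF2L1, CRELD2, HYOU1, SYVN1, ATF5, TRIB3, PPP1R15A, PSAT1 and PHGDH. DESeq2 called 8 members against replicate 1 (9.64%) and 11 against replicate 2 (38.1%). HYOU1 was called by edgeR in both, with a log2 fold change of -0.35 ± 0.08 against replicate 1 and -0.51 ± 0.08 against replicate 2 (SE, edgeR adjusted p = 0.000397 and 3.96e-09). XBP1 was at 0.60 ± 0.09 and 0.17 ± 0.09 (edgeR adjusted p = 1.84e-09 and 0.0886), and MANF at 0.50 ± 0.09 and 0.05 ± 0.09 (adjusted p = 6.32e-07 and 0.674). SEL1L was at 0.10 ± 0.08 and 2.35 ± 0.10 (edgeR adjusted p = 0.444 and 4.68e-121).

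**Figure D3:**
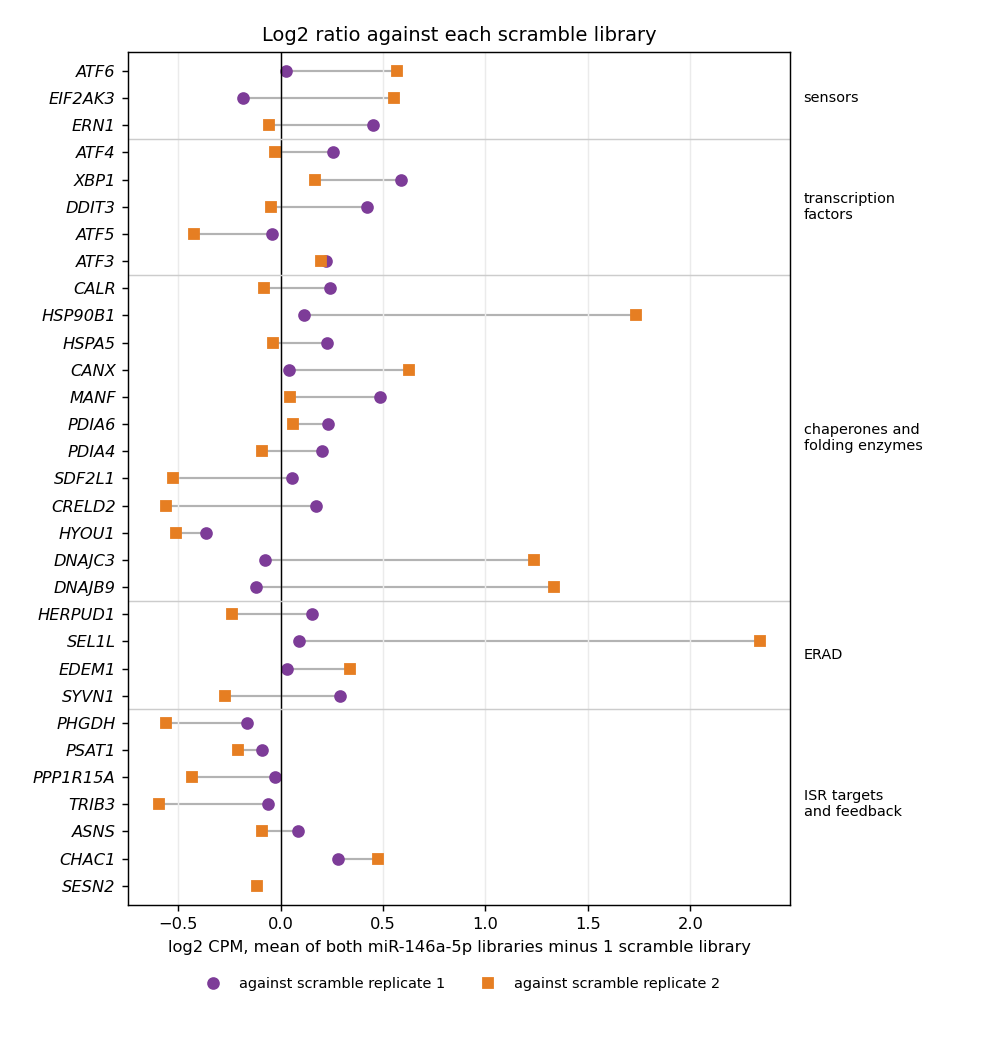
Log2 CPM (prior count 2) of the mean of the miR-146a-5p libraries minus scramble replicate 1 (circles) or minus scramble replicate 2 (squares), for each member by role; SESN2 has no circle because it is listed at 0 in scramble replicate 1. Examples with both points left of 0 are HYOU1, PHGDH and TRIB3, and with both right of it XBP1, CHAC1 and CANX, while for SEL1L the points lie at 0.09 and 2.34.

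The difference between the scramble libraries went with the GC content of the transcripts, and its part in the results above was not tested beyond the offsets given below. Among the 8 members with a GC content under 45% (39.4% to 44.4%, a limit chosen after the values were seen), scramble replicate 2 was below replicate 1 for 7, with a median log2 difference of -1.02, PSAT1 being the exception. Among the 23 members at or above it, replicate 2 was lower for 2, EDEM1 and CHAC1, and the median was 0.39. Over all tested genes the median log2 difference was -1.83 in the lowest of 10 equal bins by GC content and 0.57 in the highest. Pearson's r between GC content and this log2 difference was 0.71 over 30 members (SESN2 left out), 0.53 over all 31 and 0.67 over 14679 genes, and the points share the same pair of libraries. Of the members under 45% GC, SEL1L (39.4% GC), HSP90B1 (42.4% GC), DNAJB9, DNAJC3 and EIF2AK3 lay below the medians of their own bins. CANX, ATF6 and PSAT1 lay above theirs. Between the miR-146a-5p libraries, the bins' medians stayed between -0.04 and 0.11.

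**Figure D4:**
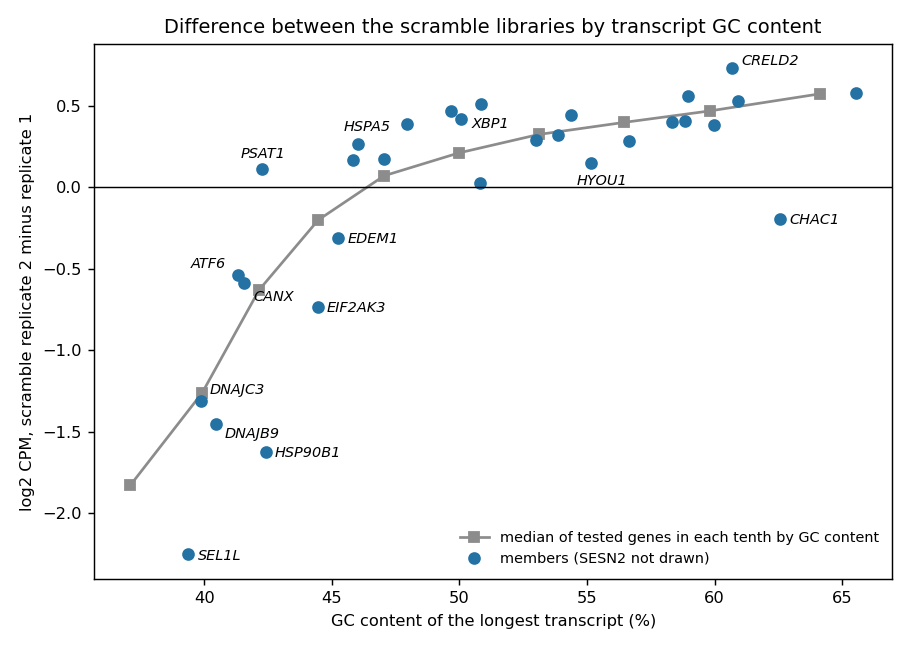
Log2 CPM of scramble replicate 2 minus replicate 1 against the GC content of the longest transcript, for 30 members (points) and for the median of each of 10 equal bins of tested genes (line). Members under 45% GC lie below 0, down to SEL1L at -2.25, except PSAT1, and the others lie above it, up to CRELD2 at 0.73, except EDEM1 and CHAC1.

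With each library's smooth trend over GC content and transcript length removed by offsets, edgeR over all 4 libraries again called 0 members and 0.0% of genes, and the median was 0.08. The estimate for HYOU1 was -0.37 ± 0.10, for XBP1 0.42 ± 0.10, for MANF 0.37 ± 0.10 and for PHGDH -0.25 ± 0.09 (SE, edgeR adjusted p = 0.360, 0.328, 0.340 and 0.440), while CANX and ATF6 turned to -0.02 and -0.16. SEL1L was at 0.61 and HSP90B1 at 0.57. Other estimates also moved with the offsets, among them PSAT1 to -0.47 (-0.15 without them), DNAJC3 to 0.08 (0.44) and DNAJB9 to 0.16 (0.44). SDF2L1 moved to -0.01 (-0.26 without them), CRELD2 to -0.03 (-0.24) and TRIB3 to -0.18 (-0.35). With offsets and 1 scramble library at a time, 10 members were called against replicate 1 (22.9% of genes), 8 higher (12.1%) and 2 lower (10.8%). Against replicate 2, 11 were called (43.1%), 7 higher (18.8%) and 4 lower (24.2%). HYOU1 was at -0.42 and -0.29 in those fits (edgeR adjusted p = 6.94e-06 and 8.92e-05), PHGDH at -0.28 and -0.20 (0.00144 and 0.00651), XBP1 at 0.49 and 0.37 (1.62e-06 and 1.80e-06) and MANF at 0.35 and 0.40 (0.000228 and 8.10e-08). SEL1L was at 0.36 and 0.94 (edgeR adjusted p = 7.78e-05 and 3.19e-30), and ATF6 was called in opposite directions, at 0.25 and -0.46 (edgeR adjusted p = 0.00680 and 2.28e-09). These offset fits with 1 scramble library were added after the data were seen.

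The counts of some members can hold reads of their neighbours, since exons overlap and the sources used here do not state that strand was used. ASNS shares 1985 exonic bases with AC079781.5 on the same strand, whose counts were 26.4% of its own. On the opposite strand, DDIT3 overlaps MARS, ATF5 overlaps NUP62, CRELD2 overlaps ALG12 and DNAJB9 overlaps PNPLA8 and THAP5, and SYVN1 overlaps FAU and MRPL49, with FAU on its own strand. All of these have more counts than the member except ALG12 and AC079781.5. Named pseudogenes of XBP1, ATF4, ASNS and PSAT1 held at most 0.028% of the member's counts.

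Other genes of the pathway were read from lists of general knowledge. Of 44 further genes of the unfolded protein response, 43 were tested, edgeR called 0 and DESeq2 0, 12 exceeded both scramble libraries and 5 were under both (18.0% of tested genes each way), and the median was 0.09. The smallest p belonged to SRPRB, a subunit of the receptor for the signal recognition particle, with 40.9 and 37.6 CPM in miR-146a-5p libraries, against 68.7 and 89.4 CPM in scramble libraries (log2 fold change -1.01 ± 0.23, SE, unadjusted p = 0.0105, edgeR adjusted p = 0.970). ERO1A, the oxidase that recharges disulfide isomerases and is also raised by hypoxia, had 3750 and 4058 counts against 2413 and 1388 counts (1.15 ± 0.33, unadjusted p = 0.0241, edgeR). SEC61A1, the channel subunit of the translocon, had 373 and 370 CPM against 457 and 584 CPM (-0.49 ± 0.18). In each of the 3 the groups did not overlap.

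Of 41 further genes of the ISR, 39 were tested, with 0 called by edgeR and 0 by DESeq2, 7 above both scramble libraries and 9 below both (18.0% of tested genes each way), and a median of 0.06. VEGFA, the angiogenic growth factor, had 113 and 108 CPM against 57.8 and 71.9 CPM (0.77 ± 0.21, unadjusted p = 0.0191, edgeR adjusted p = 0.970). SLC1A4, a neutral amino acid transporter, had 7.15 and 9.71 CPM against 4.11 and 4.48 CPM (0.97 ± 0.27). SLC7A5, a transporter of large amino acids, had 808 and 781 CPM against 965 and 1415 CPM (-0.58 ± 0.23). Against scramble replicate 1 alone and against replicate 2 alone, which share both miR-146a-5p libraries, edgeR log2 fold changes were -0.80 and -1.19 for SRPRB. They were 0.81 and 1.62 for ERO1A, and 0.95 and 0.62 for VEGFA. These genes were named for their small p in the same data, so the values are no independent support. Of the genes of amino acid supply named here, SLC1A4 lay above both scramble libraries, SLC7A5, PHGDH and PSAT1 below both, and ASNS overlapped. SLC1A4 and SLC7A5 were named for their small p, and 36.0% of all tested genes did not overlap. Of 20 cytosolic tRNA synthetases, many of which ATF4 raises, all were tested and 0 were called by edgeR or DESeq2. The groups overlapped for 18 (9473 of all 14810 tested genes), and the median was 0.03. VARS had 105 and 105 CPM against 121 and 174 CPM, below both. TARS (335 and 355 against 349 and 218 CPM) overlapped, and HARS (147 and 137 against 111 and 137 CPM) lay above both by a margin smaller than its own spread.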

How the data were processed

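RNA from 2 miR-146a-5p and 2 scramble libraries was read from 1 table. Its estimated count values, as deposited by the authors, are unscaled, and 34.3% of values of genes detected in all 4 libraries are not whole, at a tolerance of 0.001. The table also holds TPM per library, a fold ratio, its log2 value and p-values from the authors' DESeq2 comparison, per the file headers; the last 3 were not used for results. Per the submitters' processing notes, HTSeq 0.6.1, HISAT2 2.0.1, DESeq2 and cutadapt 1.9.1 were used, with the hg19 build; the counting step and annotation release are not given in the sources used here.

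Counts were rounded and genes kept by filterByExpr (minimum count 10, total 15). edgeR 4.0.16 in R 4.3.3 fitted group over all kept genes with TMM and the quasi-likelihood test, two-sided, with Benjamini-Hochberg adjustment at 0.05. SEs came from the F statistic. Ratios against 1 scramble library used log2 CPM with a prior count of 2. Alternatives were DESeq2 1.42.0, limma 3.58.1 (voom), other scalings and filters, each library left out, a replicate block, and offsets for GC content and length (mgcv 1.9.3) from GENCODE 29 transcripts. The scripts were tested on simulated data.

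The members and lists were chosen with earlier results of these data known. Values per library are given for the 10 members with the smallest p, the sensors, the transcription factors and the 3 highest by TPM, and up to 3 genes of each other list by p; others named were chosen after their values were seen. No member had log2 ratios of at least 0.5 in opposite directions against the scramble libraries. Totals of 20290055 to 22774090 counts set the depth. The site of 1 member is not reported here.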

Additional observations from a re-analysis of the deposited data

How the results depend on the processing

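edgeR called 0 members under RLE size factors, library totals, either filter, GC content and length offsets, the replicate block (with or without offsets) and the crossed block, as did limma-voom and DESeq2. Leaving out 1 library gave 0 to 17 members called, with medians from -0.0444 to 0.1503 (0.1429 with all 4), and 0 to 78 of 118 tested genes of the other lists; the 17 and the 78 came without scramble replicate 1 (54.9% of all genes called), and without scramble replicate 2 there were 9 and 42 (21.7%). With offsets these were 11 and 70 without scramble replicate 1 (43.1%), and 10 and 47 without replicate 2 (22.9%). DESeq2 gave 11 and 64 without scramble replicate 1 (median -0.052; 38.1%), and 8 and 20 without replicate 2 (9.64%). In the authors' TPM, the members' median was 0.0602 against scramble replicate 1 and 0.0797 against replicate 2, beside 0.1123 and -0.0469 in CPM (the second from -0.0453 to -0.0299 with 1 miR-146a-5p library left out). Offsets turned CANX to -0.021 (-0.0112 with the block) and ATF6 to -0.1565 (-0.1147), and SYVN1, at -0.0194, to 0.1264 (0.1274), with 0.0071 in limma-voom and 0.0074 under the block. The cause was not tested.

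Log2 fold changes that changed sign when 1 library was left out ranged from -0.0368 to 0.2397 (HSPA5), -0.0781 to 0.2558 (CALR), -0.0871 to 0.2131 (PDIA4), -0.1069 to 1.3587 (DNAJB9), -0.0647 to 1.2401 (DNAJC3), -0.5206 to 0.0734 (SDF2L1), -0.5588 to 0.1845 (CRELD2), -0.2341 to 0.1667 (HERPUD1) and -0.2708 to 0.3014 (SYVN1). The others ran from -0.0559 to 0.4676 (ERN1), -0.1661 to 0.5581 (EIF2AK3), -0.0233 to 0.2706 (ATF4), -0.0444 to 0.4395 (DDIT3), -0.0897 to 0.0958 (ASNS) and -0.091 to 10.8509 (SESN2, whose upper value is fitted against a 0 and is no bound).

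The replicate numbers are not stated to pair cultures. Replicate differences correlated at -0.1455 between the groups, and the replicate block called 5 genes of the table (0.0338%) and 0 members, the crossed pairing 0 and 0. CHAC1 rested on 62 to 90 counts per library.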

Other observations

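Of 20 cytosolic heat shock genes, 17 were tested, of which edgeR called 0 and DESeq2 0. The groups overlapped for 15 (9473 of all 14810 tested genes). HSP90AA1, the cytosolic HSP90, had 2571 and 2651 CPM in miR-146a-5p libraries, against 2560 and 784 CPM in scramble libraries, so its scramble pair differed in the same direction as that of HSP90B1. DNAJA1, a cytosolic co-chaperone, had 448 and 464 CPM against 462 and 282 CPM. HSF1, the factor that drives the heat shock genes, had 90.0 and 90.5 CPM against 94.5 and 144 CPM.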
